A study of Homo sapiens with 12 samples.

Results

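The response of HMLE-pBp cells to salinomycin was measured in 6 of the 12 RNA sequencing libraries of a series on salinomycin and the epithelial to mesenchymal transition, and all genes of those 6 libraries were considered. HMLE is an established line of immortalised human breast epithelial cells. HMLE-pBp cells are the line's non-EMT form in the labels, and HMLE-Twist cells, in which the transcription factor TWIST1 is overexpressed, are its EMT form. The members are 3 libraries of HMLE-pBp cells given 0.2 uM salinomycin for 24 hours, against 3 libraries of HMLE-pBp cells given the DMSO mock for the same time. The other 6 libraries are HMLE-Twist cells with salinomycin and HMLE-Twist cells with the mock. They share the scaling, the filter on low values and the estimate of the spread with the HMLE-pBp libraries. Apart from that they serve below to compare the lines. All 4 groups are biological triplicates by the labels and grew in the same medium with serum, insulin and hydrocortisone. Whether either line is 1 clone is not given in the sources used here.

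Salinomycin is a polyether antibiotic that carries alkali metal ions, potassium above all, across membranes. Cells sense the sterol content of the endoplasmic reticulum (ER) through the protein pair SCAP and INSIG. When sterol is low, the transcription factors SREBP1 and SREBP2 are released in the Golgi and switch on the enzymes of sterol and fatty acid synthesis. Secreted proteins leave the ER in COPII vesicles, and COPI vesicles carry escaped ER proteins back from the Golgi with the help of KDEL receptors. Load on the ER is answered by the unfolded protein response through PERK, IRE1 and ATF6. The integrated stress response acts through the translation factor eIF2alpha and the transcription factors ATF4 and CHOP, and the factor CREB3 is known for responses to Golgi stress.

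The HMLE-pBp libraries held 20.56 to 21.62 megareads of recovered reads with salinomycin and 17.95 to 24.76 megareads with the mock. All 16 markers of basal mammary epithelium reached 1 FPKM (fragments per kilobase of transcript, scaled for library size) in every HMLE-pBp library, and their summed level ran from 7105 to 7584 FPKM with salinomycin, against 7572 to 7842 FPKM with the mock. Mesenchymal markers summed to 269 to 315 FPKM with salinomycin, against 271 to 308 FPKM with the mock, with 5 of the 7 at 1 FPKM or more throughout. Luminal markers reached that level for 4 of 8 (sums of 439 to 490 FPKM with salinomycin, against 481 to 588 FPKM with the mock), and PGR was at 0. None of the 4 endothelial markers reached it (0.0246 to 0.0668 FPKM with salinomycin, against 0.0174 to 0.0773 FPKM with the mock), nor did the fibroblast markers (0.0149 to 0.0596 FPKM with salinomycin, against 0 to 0.0211 FPKM with the mock, over the 2 of 4 with values). Of 4 leukocyte markers 1 did so, CD14, with PTPRC at 0 (sums of 6.35 to 15.5 FPKM with salinomycin, against 19.3 to 29.5 FPKM with the mock), and the part of this shift in other results was not tested. TWIST1 itself averaged 926 ± 249 FPKM with salinomycin and 725 ± 343 FPKM with the mock in HMLE-Twist, and lay between 1.85 and 2.58 FPKM in the HMLE-pBp libraries.

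Salinomycin changed the levels of 2229 of 11849 genes tested in HMLE-pBp, which is 18.8% of them (limma on log2(FPKM + 1), Benjamini-Hochberg adjusted p under 0.05). 1124 genes rose (9.49%) and 1105 fell (9.33%). Most changes were modest: the median log2 fold change was 0.49 among genes that rose, -0.45 among genes that fell and -0.01 among all genes tested. In bulk RNA, fewer cells of a kind and less RNA per cell cannot be told apart. At least 2-fold changes were found for 105 genes that rose and 44 that fell, and 7 genes rose at least 4-fold. Those 7 were KDELR3, ACSS2, BHLHE40, MCEE, WARS, HMGCS1 and INHBE. They belong to retrieval of ER proteins, acetate use, transcription, propionate breakdown, tRNA charging, sterol synthesis and hormone signalling. Of the 12 deepest falls among called genes whose groups did not overlap, 6 were genes of small nucleolar RNAs, and 1 was the host gene SNHG4. The list of small nucleolar and Cajal body RNA genes as a whole was called lower for 8.22% of those tested, below the 9.33% of all genes. Its median log2 fold change was -0.67. Of its falls, 2 were in genes that passed the filter on low values only with the HMLE-pBp mock libraries.

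The size of the response differed between replicates. Taking each salinomycin library minus the mock library of the same number, genes that rose had a median log2 difference of 0.61 in replicate 1, 0.46 in replicate 2 and 0.42 in replicate 3, and genes that fell had -0.54, -0.39 and -0.44. In 1540 of the 2229 called genes the largest of the 3 differences was that of replicate 1. Without salinomycin replicate 1 the counts were 650 genes higher and 544 lower. Without mock replicate 2 they were 741 and 566, and without mock replicate 3 they were 663 and 444. Same-numbered libraries deviated together, and a fit blocked on the replicate number called 4325 genes (36.5%), 2039 higher (17.2%) and 2286 lower (19.3%), among them all 2229. Among all genes tested, the 3 salinomycin libraries lay wholly above or wholly below the 3 mock libraries for 4916 (41.5%). This held for 1119 of the genes that rose and 1086 of those that fell.

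**Figure D1:**
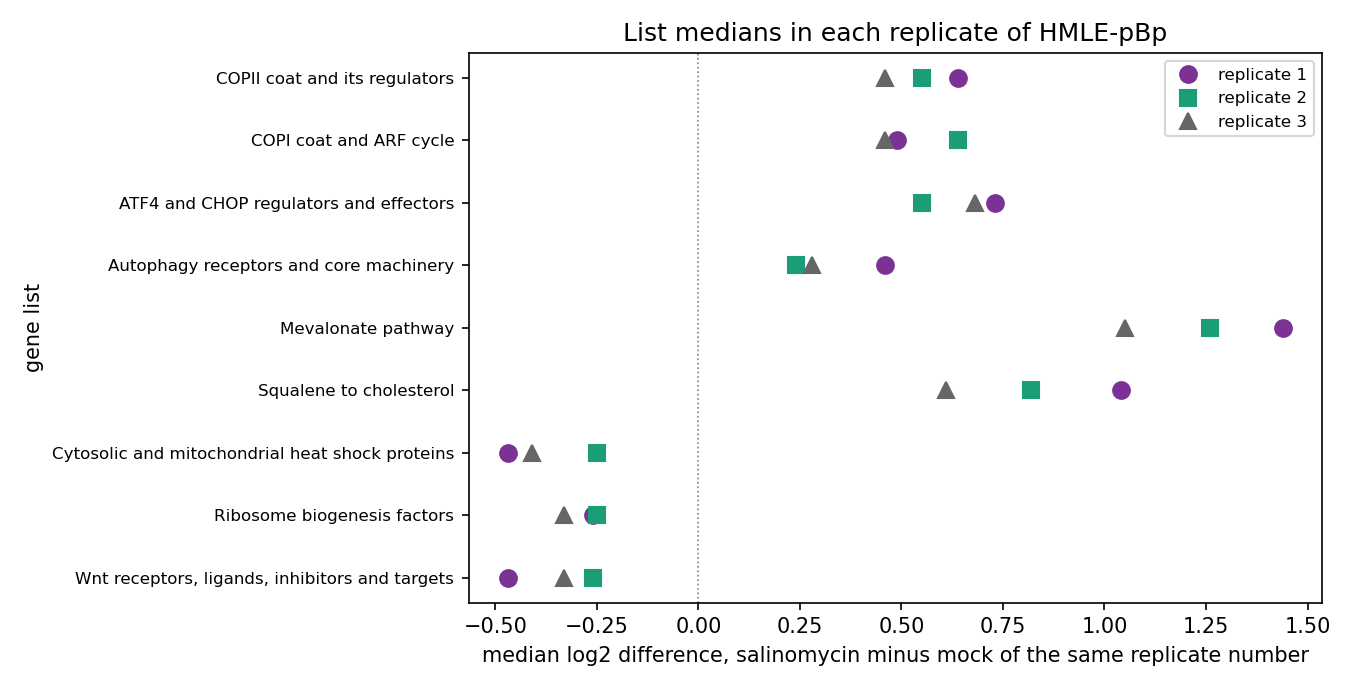
Median log2 difference between the salinomycin and the mock library of the same replicate number in HMLE-pBp, on the log2(FPKM + 1) scale (horizontal axis) for 9 gene lists (rows), 1 point for each of replicates 1, 2 and 3. The mevalonate pathway stands at 1.44, 1.26 and 1.05 and the heat shock list at -0.47, -0.25 and -0.41, and each of the 9 lists has 1 direction in all 3 replicates.

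Genes of sterol synthesis rose nearly without exception. 9 of 10 enzymes of the mevalonate pathway and 12 of 13 enzymes from squalene to cholesterol were higher with salinomycin, none was lower, and the lists' median log2 fold changes were 1.28 and 0.86. HMGCS1, which makes HMG-CoA, had 91.0, 106 and 101 FPKM in salinomycin replicates 1, 2 and 3, against 18.3, 23.2 and 26.3 FPKM in the mock replicates. All 3 salinomycin libraries lay more than 2-fold above every mock library. The log2 fold change was 2.10 ± 0.19 (SE, adjusted p = 5.01e-05). ACAT2, which condenses acetyl-CoA at the first step, rose by 1.65 and the decarboxylase MVD by 1.63 on the log2 scale. Further along, MSMO1, the sterol methyl oxidase, had 388, 412 and 363 FPKM with salinomycin, against 132, 160.0 and 173 FPKM with the mock. That is a log2 fold change of 1.33 ± 0.15 (adjusted p = 0.000195), with no overlap between groups. TM7SF2 (1.32), HSD17B7 (1.28) and CYP51A1 (1.08), reductases and the demethylase of the lanosterol part, rose by similar log2 amounts. The members that were not called were PMVK and LBR, named after their values were seen, with log2 fold changes of 0.16 and -0.30. LBR was lower with the replicate block. Without any 1 library in turn, the counts stayed at 8 to 9 and at 12.

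The regulators of this pathway moved in both directions, with more rises than falls. INSIG1, the sterol-induced retention protein for SCAP, had 177, 328 and 295 FPKM with salinomycin, against 59.0, 99.0 and 119 FPKM with the mock. Replicate 1 was the lowest library of each group, and the groups did not overlap (log2 fold change 1.53 ± 0.26, adjusted p = 0.00214). STARD4, which carries cholesterol between membranes, rose by 1.31 ± 0.13. MYLIP, a ubiquitin ligase and a target of the oxysterol receptor LXR, fell: its 0.575, 1.17 and 1.11 FPKM with salinomycin lay below 2.22, 2.66 and 2.56 FPKM with the mock (log2 fold change -0.85 ± 0.12, adjusted p = 0.000941). The SREBP genes themselves were not called. SREBF2 had 87.2, 109 and 113 FPKM with salinomycin, against 83.4, 89.4 and 100 FPKM with the mock (adjusted p = 0.311). SREBF1 had 49.1, 81.3 and 90.3 FPKM with salinomycin, against 85.1, 106 and 121 FPKM with the mock (log2 fold change -0.53, adjusted p = 0.148). In SREBF1 each salinomycin library was below the mock library of its number, and with the replicate block the gene was called lower (adjusted p = 0.00511). Of 19 tested genes for SREBP control and sterol uptake, 8 rose (5 without salinomycin replicate 2) and 2 fell (4 without salinomycin replicate 3, 5 with the replicate block). Over all genes tested 9.49% rose and 9.33% fell.

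LXR is switched on by oxysterols and drives sterol export. Among 15 tested LXR targets and partners, 3 fell (5 with the replicate block) and 1 rose (2 with the block). Falls made up 9.33% and rises 9.49% of all genes tested. ABCG1, a cholesterol exporter, had 2.76, 5.24 and 4.64 FPKM with salinomycin, against 11, 14.4 and 11.3 FPKM with the mock. Every salinomycin library was more than 2-fold below every mock library (log2 fold change -1.37 ± 0.16, adjusted p = 0.000305). LPCAT3, which puts polyunsaturated chains into phospholipids, fell by 0.77 on the log2 scale. ABCG2, a multidrug exporter, was lower (log2 fold change -0.37, adjusted p = 0.0342), but not without mock replicate 1, mock replicate 3, salinomycin replicate 1 or salinomycin replicate 2 (up to 0.146). ABCA1, the other main exporter, lay under 1 FPKM in all 6 libraries and was not called (log2 fold change -0.17, adjusted p = 0.300). RXRB, a partner receptor of LXR, was the member that rose, by 0.91.

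Of 25 tested genes of fatty acid synthesis and desaturation, 10 rose and 1 fell, with a median log2 fold change of 0.31. ACSS2, which makes acetyl-CoA from acetate in the cytosol, had 66.5, 48.7 and 45.6 FPKM with salinomycin, against 6.83, 6.72 and 6.43 FPKM with the mock. The mock libraries lay close together and the lowest salinomycin library was far above them (log2 fold change 2.81 ± 0.14, adjusted p = 5.98e-07). ACLY, which makes acetyl-CoA from citrate, had 311, 319 and 288 FPKM with salinomycin, against 140.0, 143 and 150 FPKM with the mock (log2 fold change 1.08 ± 0.07, adjusted p = 5.47e-06). FADS2, a desaturase of polyunsaturated chains, had 64.7, 62.3 and 61.5 FPKM with salinomycin, against 24.9, 25.9 and 29.1 FPKM with the mock (log2 fold change 1.21 ± 0.16). Other genes that rose encode the desaturases FADS1 and SCD, the elongases ELOVL5 and ELOVL6 and the phosphatidate phosphatase LPIN1 (0.83 on the log2 scale). FASN, the fatty acid synthase, did not pass the test with a log2 fold change of 0.57, and the desaturase gene SCD5 fell by 0.58. Phospholipid and sphingolipid genes went both ways, with 5 of 21 higher and 5 lower, against 9.49% and 9.33% of all genes tested. The 5 lower became 3 without mock replicate 2, mock replicate 3 or salinomycin replicate 1. PCYT2, the control step for phosphatidylethanolamine, rose by 0.96 ± 0.12. CHPT1, which completes phosphatidylcholine, fell by 0.65 ± 0.12, and the ceramide carrier COL4A3BP rose by 0.60.

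**Figure D2:**
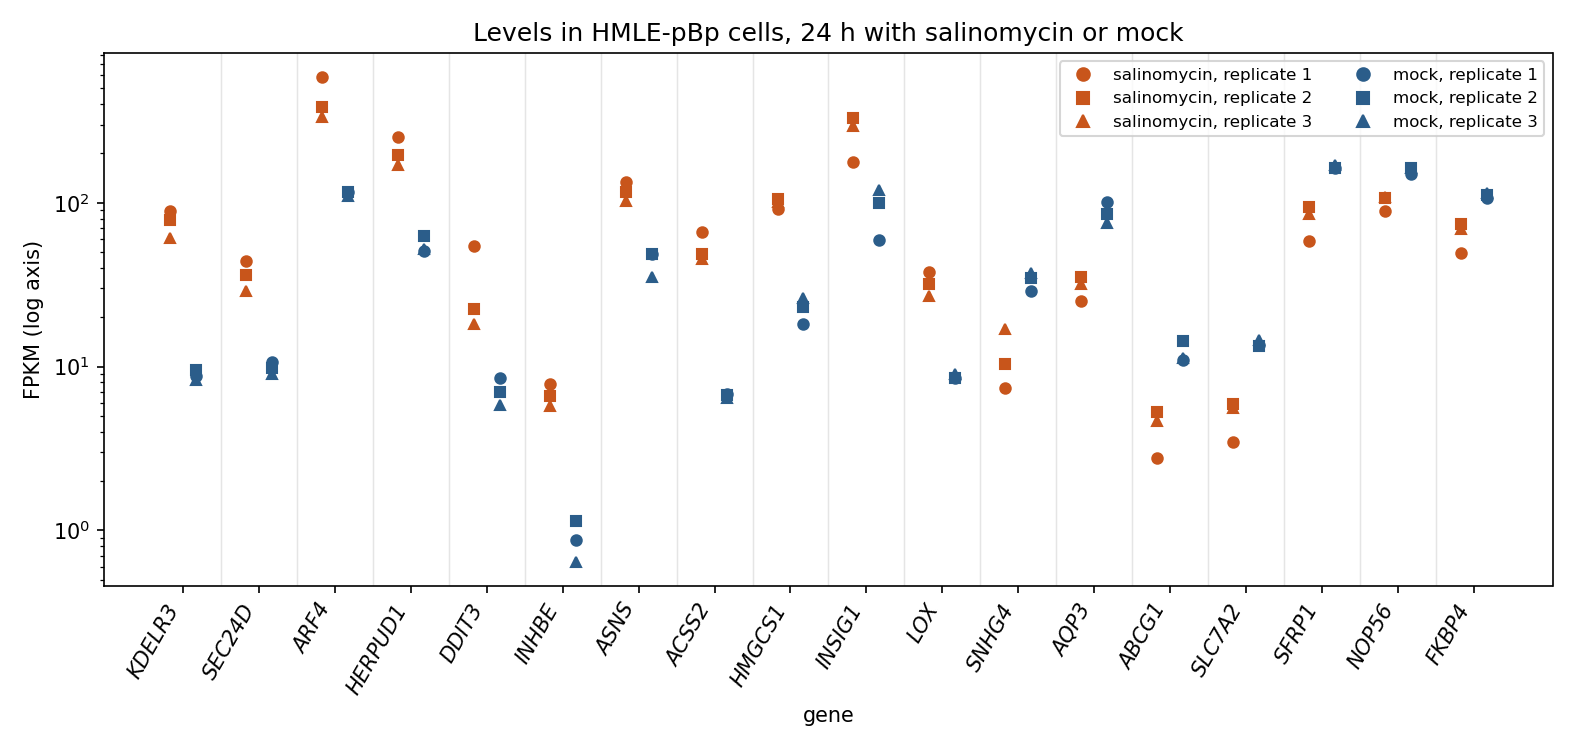
Level of selected genes (vertical axis, FPKM, log scale) in the 3 salinomycin libraries (left) and the 3 mock libraries (right) of HMLE-pBp, 1 point per library. KDELR3 stands at 61.0 to 88.6 FPKM with salinomycin and 8.25 to 9.57 FPKM with the mock, and ABCG1 at 2.76 to 5.24 FPKM with salinomycin and 11 to 14.4 FPKM with the mock.

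Traffic between ER and Golgi was the other large group of rises. Of 27 tested genes of the COPII coat and its regulators 18 rose and none fell, of 23 genes of the COPI coat and the ARF cycle 16 rose and none fell, and of 29 golgins, stacking and tethering genes 17 rose and 1 fell. With the replicate block 2 COPII genes fell. Their median log2 fold changes were 0.58, 0.52 and 0.51. Leaving out any 1 library gave 16 to 19, 14 to 16 and 15 to 17 rises. SEC24D, a cargo-binding subunit of the COPII coat, had 43.8, 36.3 and 29 FPKM with salinomycin, against 10.7, 9.84 and 9.01 FPKM with the mock. Even the lowest salinomycin library was more than 2-fold above the highest mock library (log2 fold change 1.77 ± 0.15, adjusted p = 2.61e-05). SEC24A (1.13), SEC13 (1.05) and SEC31A (1.04), an inner and both outer coat components, rose as well on the log2 scale. ARF4, a small GTPase of the Golgi, had 584, 385 and 334 FPKM with salinomycin, against 116, 116 and 110 FPKM with the mock. The mock libraries were nearly equal and replicate 1 was the highest with salinomycin (log2 fold change 1.88 ± 0.16, adjusted p = 2.92e-05). COPG1, a COPI subunit, had 104, 96.6 and 87.8 FPKM with salinomycin, against 41.7, 39.4 and 40.3 FPKM with the mock (log2 fold change 1.23 ± 0.07, adjusted p = 2.07e-06). COPA (1.30) and the GTPase activator ARFGAP3 (1.27) rose by like log2 amounts. GOLGA2 (GM130), a tether of the cis-Golgi, had 41.4, 39.2 and 38.6 FPKM with salinomycin, against 16.9, 16.5 and 17.3 FPKM with the mock. Its fold was steady over replicates (log2 fold change 1.18 ± 0.07, adjusted p = 2.07e-06). GOLGA3 (1.16), COG6 (1.24), a member of the tethering complex COG, and ACBD3 (1.06), a Golgi adaptor, rose too. The member that fell was the Golgi membrane protein GOLM1 (-0.44), a call lost without mock replicate 2, mock replicate 3 or salinomycin replicate 1.

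KDEL and cargo receptors went both ways. Of 30 tested, 7 rose and 4 fell, with a median log2 fold change of 0.09 (11 and 9 with the replicate block). Among all genes tested 9.49% rose and 9.33% fell. The 4 falls became 1 without mock replicate 2 or salinomycin replicate 1 and 0 without mock replicate 3. KDELR3 had 88.6, 78.9 and 61.0 FPKM with salinomycin, against 8.76, 9.57 and 8.25 FPKM with the mock, the highest log2 fold change of the genes called in HMLE-pBp (log2 fold change 2.95 ± 0.13, adjusted p = 3.17e-07). KDELR2 had 317, 368 and 320.0 FPKM with salinomycin, against 209, 218 and 225 FPKM with the mock (log2 fold change 0.62 ± 0.09, adjusted p = 0.000807). KDELR1 had 274, 348 and 322 FPKM with salinomycin, against 259, 290.0 and 302 FPKM with the mock, and the groups overlapped (log2 fold change 0.14, adjusted p = 0.322). Of these 3 receptors for the KDEL retrieval signal, the one with the lowest mock level thus had the highest fold. YIF1A (1.13), YIPF2 (1.01) and YIPF5 (0.97), membrane proteins of the YIP family between ER and Golgi, rose on the log2 scale.

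Genes of enzymes inside the Golgi mostly did not pass the test, unlike those of its coats and tethers. Of 42 tested genes of Golgi glycosylation and nucleotide sugar transport, 2 rose, 8 fell (19.0%) and 32 were not called. Their median log2 fold change was -0.14. Over all genes tested 9.49% rose and 9.33% fell. The 8 falls were 2 without mock replicate 2, mock replicate 3 or salinomycin replicate 1, 4 without salinomycin replicate 3, and 13 with the replicate block. ST6GALNAC2, a sialyltransferase, rose by 0.98 ± 0.12 and the UDP-galactose carrier SLC35A2 by 0.67 ± 0.15. GALNT14, which starts O-linked chains, had 25.1, 29.9 and 30.2 FPKM with salinomycin, against 40.1, 39.9 and 44.2 FPKM with the mock (log2 fold change -0.53 ± 0.10, adjusted p = 0.00333). CREB3, a membrane-bound transcription factor known from Golgi stress, had 108, 85.7 and 74.9 FPKM with salinomycin, against 35.9, 39.1 and 38.6 FPKM with the mock. The lowest salinomycin library was well above the highest mock library (log2 fold change 1.20 ± 0.12, adjusted p = 8.8e-05). Its relatives did not follow: CREB3L2 had 11.6, 15.5 and 13.3 FPKM with salinomycin, against 15.1, 16.8 and 14.5 FPKM with the mock (adjusted p = 0.236), and CREB3L1 lay under 0.1 FPKM in all 6 libraries. CALU, a calcium-binding protein of the secretory pathway, rose by 0.89.

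**Figure D3:**
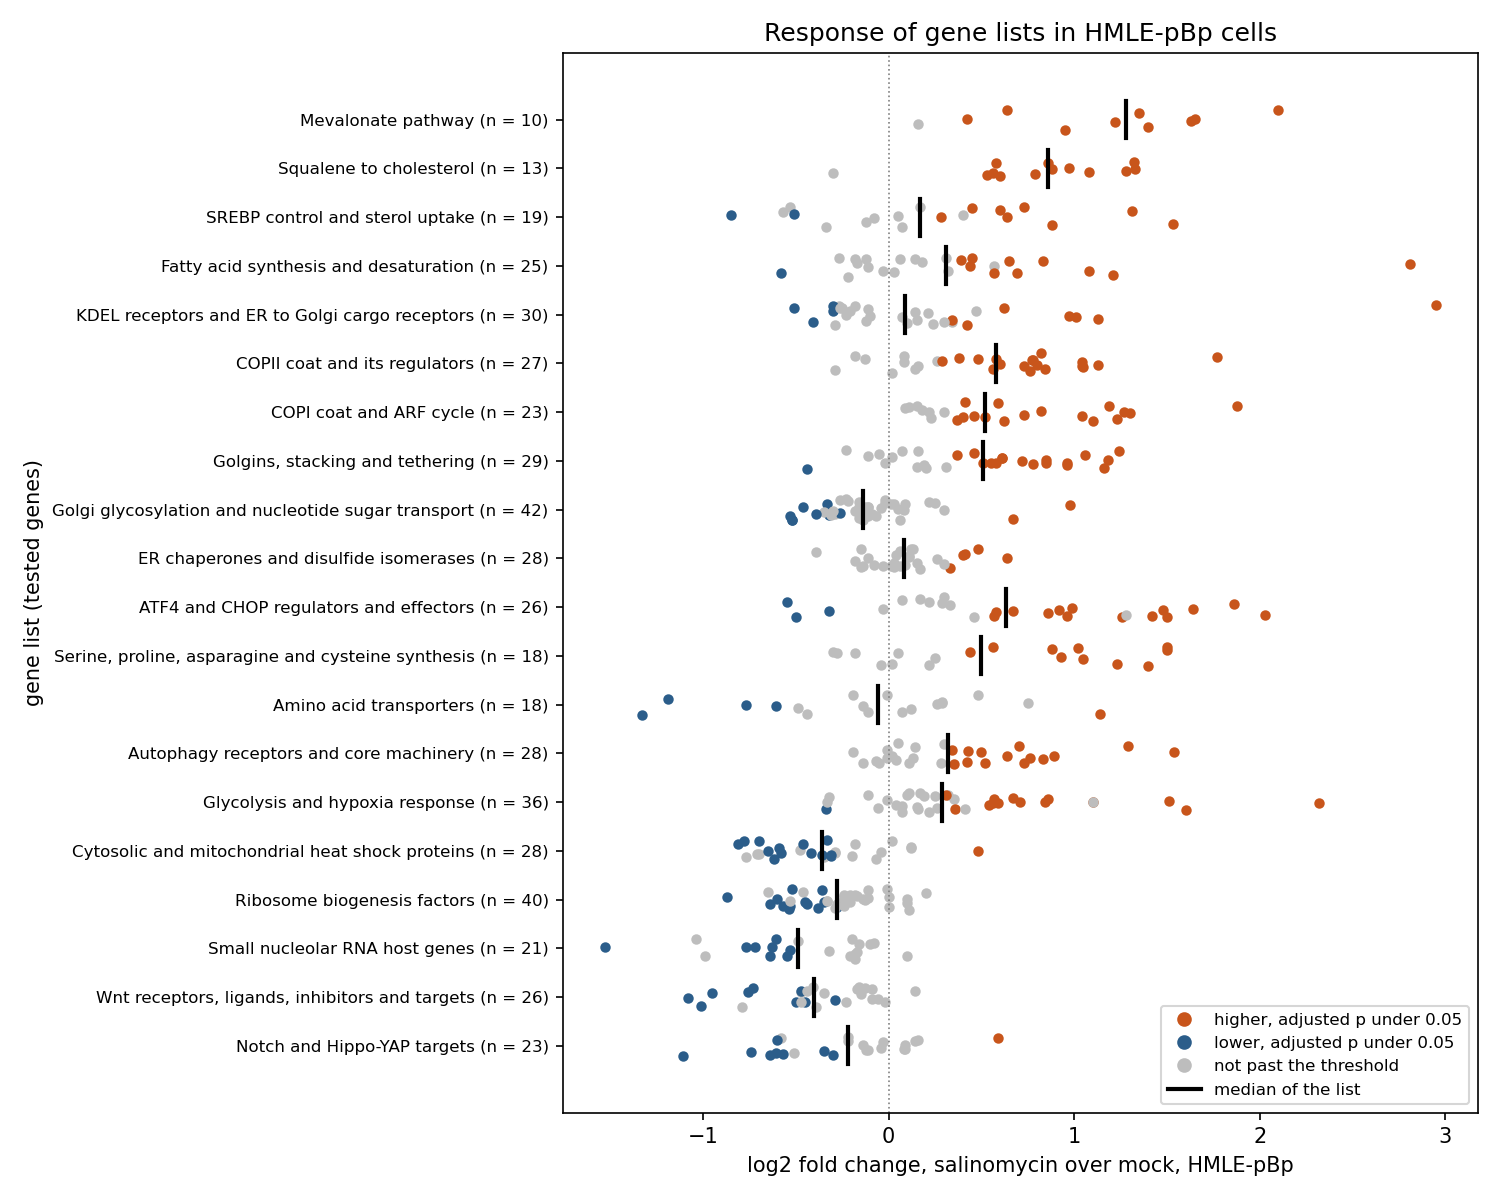
Log2 fold change of salinomycin over mock in HMLE-pBp (horizontal axis) for the tested members of gene lists (rows), 1 point per gene, with genes past the test marked by colour and the list's median by a bar. The COPII, COPI and golgin lists have medians of 0.58, 0.52 and 0.51, and the Golgi glycosylation list -0.14.

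The promoters of risen genes are shown because some of them hold short letters known from ER and Golgi stress. Each RefSeq window (GRCh38.p14, matched by symbol) runs from 250 bases before to 50 bases after the annotated start, and both strands were searched. Windows were found for 913 of the 1124 genes that rose (81.2%). They were found for 79.8% of all tested genes and 78.5% of those that fell. Both lie under the 80% asked for here in a check over a set. Shares over the 9459 tested genes with a window, which include the risen ones, are therefore given as description only. No share is given for genes that fell. A gene was counted as holding the letters if any of its windows did. The share over all genes with a RefSeq window includes genes not expressed in these cells and is no background for the tested genes. ACGTGGC, letters within the Golgi stress response element, is in capitals in 5 windows. Each belongs to the gene with the largest rise among the called members of its list that hold these letters. SEC24D, ARF4, COPA, ARFGAP3, COG6 and GOLGA2 rose more within their lists and were not found to hold them.
KDELR3, chr22:38467846-38468145, plus strand: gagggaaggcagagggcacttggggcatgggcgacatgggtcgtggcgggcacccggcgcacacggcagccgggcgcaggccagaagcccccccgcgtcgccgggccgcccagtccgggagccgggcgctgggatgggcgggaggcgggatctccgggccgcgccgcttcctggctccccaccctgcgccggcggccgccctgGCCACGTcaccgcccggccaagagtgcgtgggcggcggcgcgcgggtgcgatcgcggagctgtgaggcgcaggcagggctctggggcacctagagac
SEC24A, chr5:134648535-134648834, plus strand: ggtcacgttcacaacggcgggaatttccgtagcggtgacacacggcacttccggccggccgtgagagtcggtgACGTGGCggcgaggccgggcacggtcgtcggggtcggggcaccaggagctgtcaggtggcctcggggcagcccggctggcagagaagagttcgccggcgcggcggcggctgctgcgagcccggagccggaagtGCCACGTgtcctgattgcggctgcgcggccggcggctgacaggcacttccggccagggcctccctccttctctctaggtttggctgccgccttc
COPG1, chr3:129249356-129249655, plus strand: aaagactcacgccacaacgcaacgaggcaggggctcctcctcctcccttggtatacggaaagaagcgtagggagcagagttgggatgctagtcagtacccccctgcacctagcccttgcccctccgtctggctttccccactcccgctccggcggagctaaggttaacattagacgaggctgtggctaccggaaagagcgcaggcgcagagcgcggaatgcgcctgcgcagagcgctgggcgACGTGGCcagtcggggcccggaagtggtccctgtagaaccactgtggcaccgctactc
GOLGA3, chr12:132828820-132829119, minus strand: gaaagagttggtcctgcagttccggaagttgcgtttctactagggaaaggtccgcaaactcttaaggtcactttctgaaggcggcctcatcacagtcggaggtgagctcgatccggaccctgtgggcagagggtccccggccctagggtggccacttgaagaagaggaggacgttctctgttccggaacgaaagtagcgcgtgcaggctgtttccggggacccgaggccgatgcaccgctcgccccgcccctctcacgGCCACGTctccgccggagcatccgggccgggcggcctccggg
HERPUD1, chr16:56931892-56932191, plus strand: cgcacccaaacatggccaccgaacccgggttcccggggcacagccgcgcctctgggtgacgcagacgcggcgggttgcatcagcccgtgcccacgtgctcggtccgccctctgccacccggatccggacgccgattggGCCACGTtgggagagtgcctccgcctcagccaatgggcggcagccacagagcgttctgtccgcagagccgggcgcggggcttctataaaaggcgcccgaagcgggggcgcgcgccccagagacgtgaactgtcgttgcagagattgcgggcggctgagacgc
The windows of KDELR3, GOLGA3 and HERPUD1 hold these letters on the other strand, as GCCACGT, and SEC24A holds them once on each strand. ACGTGGC was present for 106 of 913 genes that rose (11.6%). It was present for 5.66% of tested genes with a window and 3.95% of all 27305 genes with a RefSeq window. In the COPII list 10 of 25 genes with a window held it, of which 9 rose. In the COPI list 7 of 21 held it and 6 rose, and among golgins and tethers 6 of 25 held it and 5 rose. In the Golgi glycosylation list 5 of 34 held it, of which none rose and 1 fell. Of KDEL and cargo receptors 5 of 25 held it and 2 rose. Of CREB3 family and Golgi stress factors 5 of 14 held it and 2 rose. Of ER chaperones and disulfide isomerases 4 of 25 held it and none rose. TGACGTGG, the letters of the unfolded protein response element, overlaps ACGTGGC where a C follows. It was present for 35 of the 913 genes that rose (3.83%), beside 1.17% of tested genes and 0.927% of all genes with a RefSeq window.

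The ER stress element, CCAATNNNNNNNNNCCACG, was present for 3 of the 913 genes (0.329%). It was present for 0.159% of tested genes and 0.0916% of all genes with a RefSeq window. It is in capitals in the window of HSPA5, shown because it is the classical gene of the unfolded protein response and moved little here.
HSPA5, chr9:125241294-125241593, minus strand: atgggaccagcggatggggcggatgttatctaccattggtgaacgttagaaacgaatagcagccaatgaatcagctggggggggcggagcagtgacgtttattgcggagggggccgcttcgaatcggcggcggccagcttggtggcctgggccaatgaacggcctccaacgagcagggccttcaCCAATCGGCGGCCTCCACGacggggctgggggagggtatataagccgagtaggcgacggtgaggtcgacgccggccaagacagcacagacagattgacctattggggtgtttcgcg
Among ER chaperones and disulfide isomerases 7 of 25 genes with a window held the element, and HSPA5 was the one of those 7 that rose. The amino acid response element, TGATGNAA, was present for 31 of the 913 genes (3.40%). It was present for 2.67% of tested genes and 4.46% of all genes with a RefSeq window. It is in capitals in the window of ASNS, asparagine synthetase.
ASNS, chr7:97872359-97872658, minus strand: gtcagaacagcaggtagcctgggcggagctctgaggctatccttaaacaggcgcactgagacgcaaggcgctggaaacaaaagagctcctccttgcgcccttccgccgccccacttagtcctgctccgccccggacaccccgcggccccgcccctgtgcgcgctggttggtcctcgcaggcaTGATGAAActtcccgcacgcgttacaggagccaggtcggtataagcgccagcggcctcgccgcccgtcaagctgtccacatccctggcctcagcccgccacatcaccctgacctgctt
The sterol regulatory letters TCACNCCAC were present for 18 of the 913 genes (1.97%). They were present for 1.45% of tested genes and 1.39% of all genes with a RefSeq window. A match describes letters in the window and does not show that a factor binds there.

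ER folding genes moved less than ER export genes. Of 28 tested chaperones and disulfide isomerases 5 rose and none fell (1 fell with the replicate block), with a median log2 fold change of 0.08. The 5 became 1 without mock replicate 1 or salinomycin replicate 2, 2 without salinomycin replicate 1 and 3 without mock replicate 3. HSPA5 (BiP), the main ER chaperone, had 1047, 1089 and 931 FPKM with salinomycin, against 655, 832 and 852 FPKM with the mock. The groups did not overlap, by a narrow gap (log2 fold change 0.40 ± 0.11, adjusted p = 0.0266), and the call was lost without mock replicate 1, salinomycin replicate 1 or salinomycin replicate 2 (adjusted p up to 0.0879), in a fit of the 6 HMLE-pBp libraries alone (0.052) and with no filter on low values (0.0608). DNAJB9, a co-chaperone, rose by 0.64 ± 0.12. Of 25 tested genes of ER-associated degradation, 5 rose and 4 fell. The 5 rises were 10 with the replicate block, and the 4 falls were 1 without mock replicate 2, mock replicate 3 or salinomycin replicate 1. HERPUD1, a membrane component of that pathway, had 252, 196 and 169 FPKM with salinomycin, against 50.4, 62.4 and 52.0 FPKM with the mock. Even the lowest salinomycin library was over 2-fold above the highest mock library (log2 fold change 1.87 ± 0.13, adjusted p = 6.66e-06). ERLEC1, a lectin that recognises misfolded glycoproteins, rose by 0.69 and EDEM1, a mannosidase-like factor, by 0.47.

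The list of ER stress sensors, eIF2alpha kinases and related factors had 12 tested genes, of which 4 rose (2 without mock replicate 2 or 3), with a median log2 fold change of 0.09. The 4 were EIF2AK3, XBP1, the transcription factor gene NFE2L1 (0.32) and PPP1R15A (1.33), a subunit of the phosphatase that acts on eIF2alpha. EIF2AK3, the gene of the kinase PERK, had 30.3, 26.1 and 21.9 FPKM with salinomycin, against 10.2, 10.7 and 10.6 FPKM with the mock (log2 fold change 1.22 ± 0.11, adjusted p = 4.79e-05). XBP1, whose RNA is spliced by IRE1, had 257, 233 and 200 FPKM with salinomycin, against 115, 148 and 109 FPKM with the mock (log2 fold change 0.89 ± 0.13, adjusted p = 0.00101). These tables do not tell its spliced form from the unspliced one.

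ATF4, the central factor of the integrated stress response, had 297, 240.0 and 216 FPKM with salinomycin, against 188, 171 and 142 FPKM with the mock. It was higher by 0.58 on the log2 scale (adjusted p = 0.018), a call lost without mock replicate 3 (0.0842) or salinomycin replicate 1 (0.0801). Regulators and effectors of ATF4 and CHOP, both genes included, rose for 14 of 26 tested, with a median log2 fold change of 0.63, and 3 fell (1 without mock replicate 3). DDIT3, the gene of CHOP, had 54.5, 22.3 and 18.1 FPKM with salinomycin, against 8.53, 6.98 and 5.84 FPKM with the mock. Replicate 1 stood well above the other two salinomycin libraries, which still exceeded every mock library (log2 fold change 1.86 ± 0.35, adjusted p = 0.00393). INHBE, a hormone of the activin family, had 7.80, 6.59 and 5.74 FPKM with salinomycin, against 0.870, 1.14 and 0.642 FPKM with the mock (log2 fold change 2.03 ± 0.21, adjusted p = 9.33e-05). GDF15, a stress hormone, had 39.8, 17.8 and 37.4 FPKM with salinomycin, against 11.5, 6.25 and 9.72 FPKM with the mock, so that replicate 2 was the lowest library of each group (log2 fold change 1.64 ± 0.35, adjusted p = 0.00798). TRIB3, a pseudokinase that restrains ATF4 and CHOP, rose by 1.26 ± 0.23 on the log2 scale.

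Amino acid synthesis rose with these genes. Of 18 tested genes for serine, proline, asparagine and cysteine, 10 rose, and 10 did so whichever library was left out. None fell, against 1 without salinomycin replicate 2 and 2 with the replicate block. ASNS had 134, 117 and 102 FPKM with salinomycin, against 48.9, 48.7 and 35.3 FPKM with the mock (log2 fold change 1.40 ± 0.26, adjusted p = 0.00422). CBS and CTH, the pair of enzymes that turn homocysteine into cysteine, both had a log2 fold change of 1.5, and the mitochondrial folate enzyme ALDH1L2 one of 1.23. Uptake did not follow. Of 18 amino acid transporters tested, 1 rose, SLC1A4 (1.14 on the log2 scale, 5 with the replicate block). The list had 4 falls (22.2%, against 9.33% of all genes) and a median of -0.06. SLC7A2, a carrier of cationic amino acids, had 3.48, 5.94 and 5.60 FPKM with salinomycin, against 13.6, 13.4 and 14.5 FPKM with the mock (log2 fold change -1.33 ± 0.19, adjusted p = 0.000833). SLC1A3, a glutamate and aspartate carrier, had 5.79, 9.94 and 9.17 FPKM with salinomycin, against 17.3, 20.1 and 22.1 FPKM with the mock, and fell by 1.19 on the log2 scale.

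Among 35 tested aminoacyl-tRNA synthetase genes 9 rose and 7 fell. The 9 were 3 without mock replicate 3 or salinomycin replicate 1, and the 7 were 2 without mock replicate 2 or 3, 3 without salinomycin replicate 1, 4 without salinomycin replicate 2 and 11 with the replicate block. GARS, the glycyl enzyme, rose by 0.89 ± 0.15, while the mitochondrial methionyl enzyme MARS2 had 4.83, 6.03 and 5.82 FPKM with salinomycin, against 11.4, 11.2 and 11.2 FPKM with the mock (log2 fold change -0.91 ± 0.12, adjusted p = 0.000473). WARS, the tryptophanyl enzyme, had 130.0, 103 and 94.1 FPKM with salinomycin, against 24.7, 25.1 and 20 FPKM with the mock (log2 fold change 2.18 ± 0.15). MCEE, an epimerase of propionate breakdown, had 28.1, 24.5 and 22.6 FPKM with salinomycin, against 4.70, 4.59 and 4.32 FPKM with the mock (log2 fold change 2.23 ± 0.13). The length recovered for these genes was short, 0.43 of the reference length for WARS and 0.35 for MCEE, and the posterior for their reads was 0.972 and 0.951. A missed multiple of the mock reads would make such a rise too large.

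Autophagy genes rose for 14 of 28 tested and fell for none (1 with the replicate block), with a median log2 fold change of 0.32. The count was 7 without mock replicate 3 and 9 without salinomycin replicate 1. WIPI1, which marks forming autophagosomes, had 8.28, 6.01 and 5.58 FPKM with salinomycin, against 1.78, 1.35 and 1.65 FPKM with the mock (log2 fold change 1.54 ± 0.12, adjusted p = 1.49e-05). BNIP3L, a receptor for the removal of mitochondria, had 26.9, 21.6 and 18.4 FPKM with salinomycin, against 7.93, 8.66 and 8.77 FPKM with the mock (log2 fold change 1.29 ± 0.13, adjusted p = 8.8e-05). Both genes were more than 2-fold higher in every salinomycin library. Lysosomal genes were mixed, with 6 of 38 higher (3 without salinomycin replicate 2). There were 5 lower (2 without mock replicate 2 or 3, 3 without salinomycin replicate 1, 11 with the replicate block). As a share of all genes tested, 9.49% were higher and 9.33% lower. CD63, a membrane protein of late endosomes and lysosomes, rose by 0.47 ± 0.09.

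Of 23 tested genes of iron handling 1 rose (2 without salinomycin replicate 3, 6 with the replicate block) and 4 fell (2 without mock replicate 3). The median log2 fold change was -0.07. For comparison, 9.49% of all genes tested rose and 9.33% fell. FTH1, the heavy chain of the iron store ferritin, had 1574, 1046 and 1231 FPKM with salinomycin, against 896, 731 and 790.0 FPKM with the mock (log2 fold change 0.66 ± 0.13, adjusted p = 0.00636). TFRC, the transferrin receptor, had 335, 365 and 329 FPKM with salinomycin, against 250, 270.0 and 294 FPKM with the mock. It did not pass the test (log2 fold change 0.34, adjusted p = 0.133) though the groups did not overlap, and was called higher with the replicate block (adjusted p = 0.0103) and in the 6 HMLE-pBp libraries alone (0.0321). STEAP3, which reduces iron in endosomes, had 21.1, 29.7 and 27.4 FPKM with salinomycin, against 38.4, 44 and 48.8 FPKM with the mock, and fell by 0.73 on the log2 scale.

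Genes of glycolysis and the hypoxia response rose for 14 of 36 tested. 1 member fell, a count of 3 with the replicate block and of 0 without mock replicate 1, mock replicate 3, salinomycin replicate 1 or salinomycin replicate 2. SLC2A3, the glucose carrier GLUT3, had 14.2, 10.0 and 9.01 FPKM with salinomycin, against 2.97, 2.99 and 2.80 FPKM with the mock (log2 fold change 1.60 ± 0.13, adjusted p = 2.35e-05). ALDOC, an aldolase, had 32.7, 29 and 27.6 FPKM with salinomycin, against 9.02, 10.3 and 10.0 FPKM with the mock (log2 fold change 1.51 ± 0.14, adjusted p = 4.24e-05). The enolase gene ENO2 rose by 1.1. BHLHE40, a transcription factor of clock and hypoxia responses, had 89.7, 80.1 and 72.8 FPKM with salinomycin, against 13.1, 15.5 and 17.7 FPKM with the mock (log2 fold change 2.32 ± 0.14). Its recovered length was 0.44 of the reference with a posterior of 0.952, so a missed multiple would make its rise too large as well. TSC22D3, the glucocorticoid-induced leucine zipper, had 55.6, 52.9 and 51.3 FPKM with salinomycin, against 21.5, 23.0 and 18.6 FPKM with the mock, and rose by 1.31 ± 0.18 on the log2 scale in medium that holds hydrocortisone in both groups. PER2, a clock gene, fell by 0.56.

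Small nucleolar RNAs (snoRNAs) guide the modification of ribosomal RNA and lie mostly in introns of host genes. Of 21 tested snoRNA host genes 8 fell (38.1%, against 9.33% of all genes) and none rose (13 fell with the replicate block), with a median log2 fold change of -0.49. SNHG4 had 7.35, 10.4 and 16.9 FPKM with salinomycin, against 29.1, 34.9 and 37.3 FPKM with the mock (log2 fold change -1.53 ± 0.22, adjusted p = 0.000781). SNHG3 had 30, 41.2 and 47.0 FPKM with salinomycin, against 61.6, 74.7 and 64.4 FPKM with the mock, and DANCR had 44, 52.4 and 60.5 FPKM with salinomycin, against 80.7, 89.5 and 89.0 FPKM with the mock. In all 3 host genes replicate 1 was the lowest salinomycin library and the groups did not overlap. SNORA24, a guide RNA of the H/ACA class for pseudouridylation, had 2.99, 3.73 and 7.48 FPKM with salinomycin, against 14.6, 14.8 and 18.8 FPKM with the mock (log2 fold change -1.64 ± 0.25, adjusted p = 0.00127). Reads of a snoRNA and of the transcript it lies in cannot be told apart here, and the kit captures polyadenylated RNA. Of 395 snoRNA and Cajal body RNA genes listed, 146 were tested, 12 fell and none rose. That is 8.22% of them, below the 9.33% of all genes that fell. The median log2 fold change over the 146 was nonetheless -0.67, against -0.01 over all genes tested. In replicates 1, 2 and 3 their median was -0.86, -0.74 and -0.48. Of the 146, 16 passed the filter on low values only with the HMLE-pBp mock libraries, and 10 of the other 130 fell (7.69%). The median over those 130 was -0.72. The count of falls depended on single libraries. It was 36 without salinomycin replicate 3, 7 without mock replicate 2, 6 without mock replicate 3 or salinomycin replicate 2, 5 without salinomycin replicate 1, and 66 with the replicate block, where 19.3% of all genes fell.

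Ribosome biogenesis factors fell for 13 of 40 tested (32.5%, against 9.33% of all genes) and rose for none, with a median log2 fold change of -0.28. The 13 were 8 without mock replicate 2, 6 without mock replicate 3, 7 without salinomycin replicate 1 and 24 with the replicate block. NOP56, a core protein of methylation-guide particles, had 89.1, 107 and 109 FPKM with salinomycin, against 150, 163 and 163 FPKM with the mock (log2 fold change -0.64 ± 0.11, adjusted p = 0.00228). NOP16, a nucleolar assembly factor, had 26.4, 31.0 and 30.1 FPKM with salinomycin, against 45.1, 43.5 and 45.6 FPKM with the mock (log2 fold change -0.60 ± 0.14). MYC, a driver of these genes, had 88.0, 95.7 and 110 FPKM with salinomycin, against 158, 117 and 152 FPKM with the mock. It was called lower (log2 fold change -0.53, adjusted p = 0.0223), but not without mock replicate 1, mock replicate 3, salinomycin replicate 1 or salinomycin replicate 2 (up to 0.0926).

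Heat shock genes outside the ER fell for 13 of 28 tested (46.4%, against 9.33% of all genes). There was 1 that rose (none without mock replicate 1 or salinomycin replicate 2), and the median log2 fold change was -0.36. The 13 were 8 without mock replicate 2, 6 without mock replicate 3 or salinomycin replicate 1 and 20 with the replicate block. FKBP4, a co-chaperone of steroid receptors, had 49.0, 73.7 and 68.8 FPKM with salinomycin, against 107, 111 and 115 FPKM with the mock (log2 fold change -0.81 ± 0.13, adjusted p = 0.00166). HSPE1, the mitochondrial co-chaperonin, had 74.5, 78.9 and 68.2 FPKM with salinomycin, against 128, 121 and 113 FPKM with the mock (log2 fold change -0.70 ± 0.10, adjusted p = 0.000665). HSP90AA1, the inducible HSP90 gene, had 227, 339 and 305 FPKM with salinomycin, against 405, 458 and 492 FPKM with the mock (log2 fold change -0.65 ± 0.13). None of these 3 genes had overlapping groups. The ER chaperones and disulfide isomerases had a median near 0 (0.08 in the fit, and 0.13, 0.12 and 0.0 in replicates 1, 2 and 3). The median of the heat shock list was -0.36.

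Most cell cycle genes did not pass the test. Of 35 tested genes of DNA replication 8 fell (22.9%, against 9.33% of all genes) and none rose, with a median log2 fold change of -0.15. Of 30 genes of G2 phase and mitosis 4 fell (13.3%, near that background) and none rose. Of 28 cyclins and their kinases 5 fell (3 without mock replicate 3 or salinomycin replicate 1, 11 with the replicate block) and 3 rose, with a median of -0.06. Without mock replicate 1, 2 or 3 or salinomycin replicate 1 the 8 became 3, 4, 4 and 2, and the 4 became 1, 1, 2 and 1. With the replicate block the 4 mitotic falls were 10, and 1 mitotic gene rose. MCM3, a subunit of the replicative helicase, had 80.8, 88.7 and 85.8 FPKM with salinomycin, against 111, 105 and 103 FPKM with the mock (log2 fold change -0.32 ± 0.07, adjusted p = 0.00839). CDC20, the activator of the anaphase-promoting complex, had 106, 127 and 125 FPKM with salinomycin, against 153, 157 and 153 FPKM with the mock (log2 fold change -0.37 ± 0.08, adjusted p = 0.00872). MKI67, the proliferation marker Ki-67, had 53.2, 80.4 and 72.0 FPKM with salinomycin, against 75.2, 96.2 and 83.3 FPKM with the mock. Its groups overlapped (adjusted p = 0.178), and with the replicate block it was called lower (adjusted p = 0.0226). CCNG2, a cyclin linked to arrest, had 15.5, 13.6 and 10.6 FPKM with salinomycin, against 5.70, 4.96 and 4.79 FPKM with the mock (log2 fold change 1.20 ± 0.16, adjusted p = 0.000632). CCNE1 and E2F2, drivers of S phase entry, fell by 0.63 and 0.60 on the log2 scale. TP53INP1, a stress-induced autophagy protein, and RRM2B, a ribonucleotide reductase subunit, rose by 0.70 and 0.51.

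Of 14 tested keratin genes 1 fell (7.14%, near the 9.33% of all genes) and none rose, with a median log2 fold change of -0.25. Without salinomycin replicate 2 the count of falls was 3, without salinomycin replicate 3 it was 2, and with the replicate block it was 9. CDH1, E-cadherin, had 189, 189 and 171 FPKM with salinomycin, against 164, 173 and 174 FPKM with the mock (log2 fold change 0.10, adjusted p = 0.379). KRT5, a basal keratin, had 1029, 1063 and 1060.0 FPKM with salinomycin, against 1278, 1008 and 1083 FPKM with the mock (adjusted p = 0.778). Its partner KRT14 had 594, 697 and 633 FPKM with salinomycin, against 982, 845 and 852 FPKM with the mock. These groups did not overlap, yet the test was missed (log2 fold change -0.48, adjusted p = 0.0542) and passed with the replicate block (0.00321) and in the 6 HMLE-pBp libraries alone (0.017). EPCAM, an epithelial adhesion protein, had 141, 158 and 184 FPKM with salinomycin, against 222, 231 and 291 FPKM with the mock. The call (log2 fold change -0.62, adjusted p = 0.0146) was lost without mock replicate 3 (0.0733) or salinomycin replicate 1 (0.0618), and with a pseudocount of 0.1 (0.143). CD24, a surface protein that is low on cells read as stem-like in breast, had 224, 222 and 208 FPKM with salinomycin, against 356, 310.0 and 311 FPKM with the mock (log2 fold change -0.57, adjusted p = 0.014, 0.0502 without mock replicate 1 and 0.0924 with a pseudocount of 0.1). CD44, its counterpart, had 215, 238 and 213 FPKM with salinomycin, against 204, 231 and 229 FPKM with the mock (log2 fold change 0.00, adjusted p = 0.993). PROCR, a protein C receptor found on mammary progenitors, had 30.9, 41.0 and 44 FPKM with salinomycin, against 69.0, 76.8 and 92.2 FPKM with the mock, and fell by 1.02 ± 0.16 (adjusted p = 0.00117). ESRP1, a splicing regulator of epithelial cells, rose by 0.51, while the epithelial factor GRHL3 fell by 0.59.

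Mesenchymal genes did not shift together. Of 31 tested 4 rose (8 with the replicate block) and 2 fell (6.45%). The shares over all genes tested were 9.49% for rises and 9.33% for falls. The falls were 1 when mock replicate 2 or 3 or any salinomycin replicate was left out. LOX, which crosslinks collagen, had 38.0, 31.8 and 27.1 FPKM with salinomycin, against 8.49, 8.56 and 8.98 FPKM with the mock (log2 fold change 1.77 ± 0.11, adjusted p = 4.17e-06). Its relative LOXL2 had 75.0, 90.3 and 86.1 FPKM with salinomycin, against 34.9, 43.4 and 50.4 FPKM with the mock (log2 fold change 0.96 ± 0.17). MMP2, a gelatinase, had 1.57, 1.53 and 1.44 FPKM with salinomycin, against 3.15, 3.39 and 2.62 FPKM with the mock, and fell by 0.69. MMP9, the other gelatinase, fell by 0.82 ± 0.13. VIM, vimentin, had 90.7, 62.9 and 43.6 FPKM with salinomycin, against 47.9, 50.2 and 34.1 FPKM with the mock, with overlap (adjusted p = 0.110, but 0.0135 without salinomycin replicate 3 and 0.00632 with the replicate block). ZEB1, a driver of the transition, lay under 0.2 FPKM in all 6 libraries.

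Genes of the Wnt pathway fell for 9 of 26 tested (34.6%, against 9.33% of all genes) and rose for none. Their median log2 fold change was -0.40. The 9 were 5 without mock replicate 2, 3 without mock replicate 3 or salinomycin replicate 1 and 17 with the replicate block. The 2 deepest falls were in genes of secreted inhibitors of the pathway. SFRP1, a secreted decoy of Wnt ligands, had 58.0, 94.2 and 84.9 FPKM with salinomycin, against 163, 162 and 170.0 FPKM with the mock (log2 fold change -1.08 ± 0.14, adjusted p = 0.000445). DKK1, which blocks the coreceptor LRP6, had 81.7, 73.1 and 67.1 FPKM with salinomycin, against 158, 132 and 160.0 FPKM with the mock (log2 fold change -1.01 ± 0.20, adjusted p = 0.00577). Ligand and receptor genes among the 9 include WNT7B, FZD3, FZD5 and LRP5. CCND1, a Wnt target, had 18.1, 22.2 and 25.1 FPKM with salinomycin, against 30.8, 28.4 and 32.1 FPKM with the mock, with no overlap but no call (adjusted p = 0.167, 0.0384 in the 6 HMLE-pBp libraries alone and 0.00822 with the replicate block). DLL1, a Notch ligand, fell by 0.74 ± 0.09. FST, a secreted blocker of activin, had 8.62, 5.12 and 4.70 FPKM with salinomycin, against 19.0, 14.2 and 12.3 FPKM with the mock (log2 fold change -1.20 ± 0.22, adjusted p = 0.00365).

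Transport of water and ions changed for single genes. AQP3, a channel for water and glycerol, had 25.2, 35.2 and 31.7 FPKM with salinomycin, against 101, 84.9 and 75.4 FPKM with the mock. Every salinomycin library was more than 2-fold below every mock library (log2 fold change -1.48 ± 0.13, adjusted p = 3.21e-05). ATP1B3, a subunit of the sodium pump, fell by 0.55 ± 0.11 on the log2 scale. KCNJ15, an inwardly rectifying potassium channel, had 11.9, 12.8 and 10.4 FPKM with salinomycin, against 16.7, 20.3 and 20.4 FPKM with the mock (log2 fold change -0.66 ± 0.11, adjusted p = 0.00195). The calcium channel gene ORAI3 had 12.3, 15.2 and 16.2 FPKM with salinomycin, against 4.84, 5.45 and 6.35 FPKM with the mock, and rose by 1.25 ± 0.17. The zinc carriers SLC39A10 and SLC39A1 fell by 0.69 and 0.59.

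The last question was where this response differs from that of HMLE-Twist cells, tested as the response in HMLE-pBp minus the response in HMLE-Twist within 1 fit. It differed for 1603 of 11849 genes (13.5%), 781 of them higher (6.59%) and 822 lower (6.94%) in HMLE-pBp. With the replicate block these were 1840 and 2000. On a TPM scale they were 523 and 870. The counts moved by more than 1.5 times without HMLE-pBp mock replicate 2 (401 and 461), HMLE-pBp mock replicate 3 (353 and 409), HMLE-Twist salinomycin replicate 1 (342 and 442), HMLE-Twist salinomycin replicate 3 (351 and 431) or HMLE-Twist mock replicate 2 (382 and 476). Genes higher in HMLE-pBp were 495 without HMLE-pBp salinomycin replicate 1, 437 without HMLE-pBp salinomycin replicate 2 and 1183 without HMLE-Twist mock replicate 3. Of the 1124 genes that rose in HMLE-pBp, 469 also rose and 67 fell in HMLE-Twist. Of the 1105 that fell, 245 also fell and 70 rose in HMLE-Twist.

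Sterol and fatty acid genes were prominent among the differences. The response was higher in HMLE-pBp for 9 of 10 genes of the mevalonate pathway, 11 of 13 from squalene to cholesterol and 11 of 25 of fatty acid synthesis, and lower for none. In HMLE-Twist 6, 9 and 10 of these genes fell and none rose. ACSS2 averaged 12.1 ± 1.39 FPKM with salinomycin and 17.4 ± 2.02 FPKM with the mock in HMLE-Twist (SD, n = 3 each), and the difference of responses was 3.30 ± 0.19 on the log2 scale (SE, adjusted p = 5.26e-06). HMGCS1 averaged 28.1 ± 1.53 FPKM with salinomycin and 54.4 ± 16.5 FPKM with the mock in HMLE-Twist, a difference of 2.98 ± 0.27 (adjusted p = 0.000101). INSIG1 averaged 50.3 ± 5.72 FPKM with salinomycin and 112 ± 13.3 FPKM with the mock there, a difference of 2.66 ± 0.36 (adjusted p = 0.00129). All 3 genes thus had responses of opposite sign in the lines. Beyond lipids, ALDOC (difference 2.27) and TSC22D3 (2.02) rose in HMLE-pBp and fell in HMLE-Twist. BNIP3L averaged 54.5 ± 3.65 FPKM with salinomycin and 56.3 ± 7.07 FPKM with the mock in HMLE-Twist, and its response was higher in HMLE-pBp by 1.33 ± 0.18 (adjusted p = 0.00129).

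Over all genes tested, 13.5% had responses that differed between the lines. The counts for COPI genes and for golgins and tethers lay near that share, and the count for COPII genes lay below it. The response was higher in HMLE-pBp for none and lower for 1 of 27 COPII genes, higher for 2 and lower for 1 of 23 COPI genes, and higher for 1 and lower for 3 of 29 golgins and tethers. KDELR3 differed by 0.45 ± 0.18 (adjusted p = 0.115), ARF4 by 0.45 ± 0.23 (adjusted p = 0.194) and SEC24D by 0.45 ± 0.21 (adjusted p = 0.169). A p that misses the threshold does not show equal responses. In ATF4 and CHOP targets the response was lower in HMLE-pBp for 1 of 26 and higher for none.

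For other groups the log2 fold change in HMLE-pBp was below that in HMLE-Twist, as it was for 6.94% of all genes tested. This held for 14 of 25 genes of ERK feedback and early response, 11 of 18 amino acid transporters, 11 of 42 Golgi glycosylation genes, 9 of 30 KDEL and cargo receptor genes, 9 of 40 ribosome biogenesis factors and 8 of 21 snoRNA host genes. Of these last lists 13 ribosome biogenesis factors and 8 host genes fell in HMLE-pBp, against 1 and 1 in HMLE-Twist. MYC averaged 63.7 ± 8.65 FPKM with salinomycin and 20.5 ± 2.59 FPKM with the mock in HMLE-Twist, and its response was lower in HMLE-pBp by 2.11 (difference -2.11 ± 0.20, adjusted p = 0.000124). EGR1, an early growth response factor, rose in both lines. It had 36.1, 37.4 and 39.0 FPKM with salinomycin, against 14.6, 16.5 and 17.3 FPKM with the mock in HMLE-pBp, and averaged 24.4 ± 1.37 FPKM with salinomycin and 5.80 ± 1.28 FPKM with the mock in HMLE-Twist (difference -0.75 ± 0.17, adjusted p = 0.0148). KDELR1 averaged 200 ± 5.85 FPKM with salinomycin and 114 ± 9.93 FPKM with the mock in HMLE-Twist, against no call in HMLE-pBp (difference -0.66 ± 0.14, adjusted p = 0.0113). RCN3, a calcium-binding protein of the secretory pathway, had 0.291, 0.263 and 0.25 FPKM with salinomycin, against 0, 0.0326 and 0.0482 FPKM with the mock in HMLE-pBp, where it was called with the replicate block only (adjusted p = 0.0313, against 0.0971). It averaged 26.2 ± 1.28 FPKM with salinomycin and 1.90 ± 0.546 FPKM with the mock in HMLE-Twist (difference -2.95 ± 0.17, adjusted p = 5.26e-06). SFRP1 and ABCG1, which fell in HMLE-pBp, had means under 0.2 FPKM in HMLE-Twist in both groups, and their differences of -1.13 and -1.36 compare a fall with a gene near 0.

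**Figure D4:**
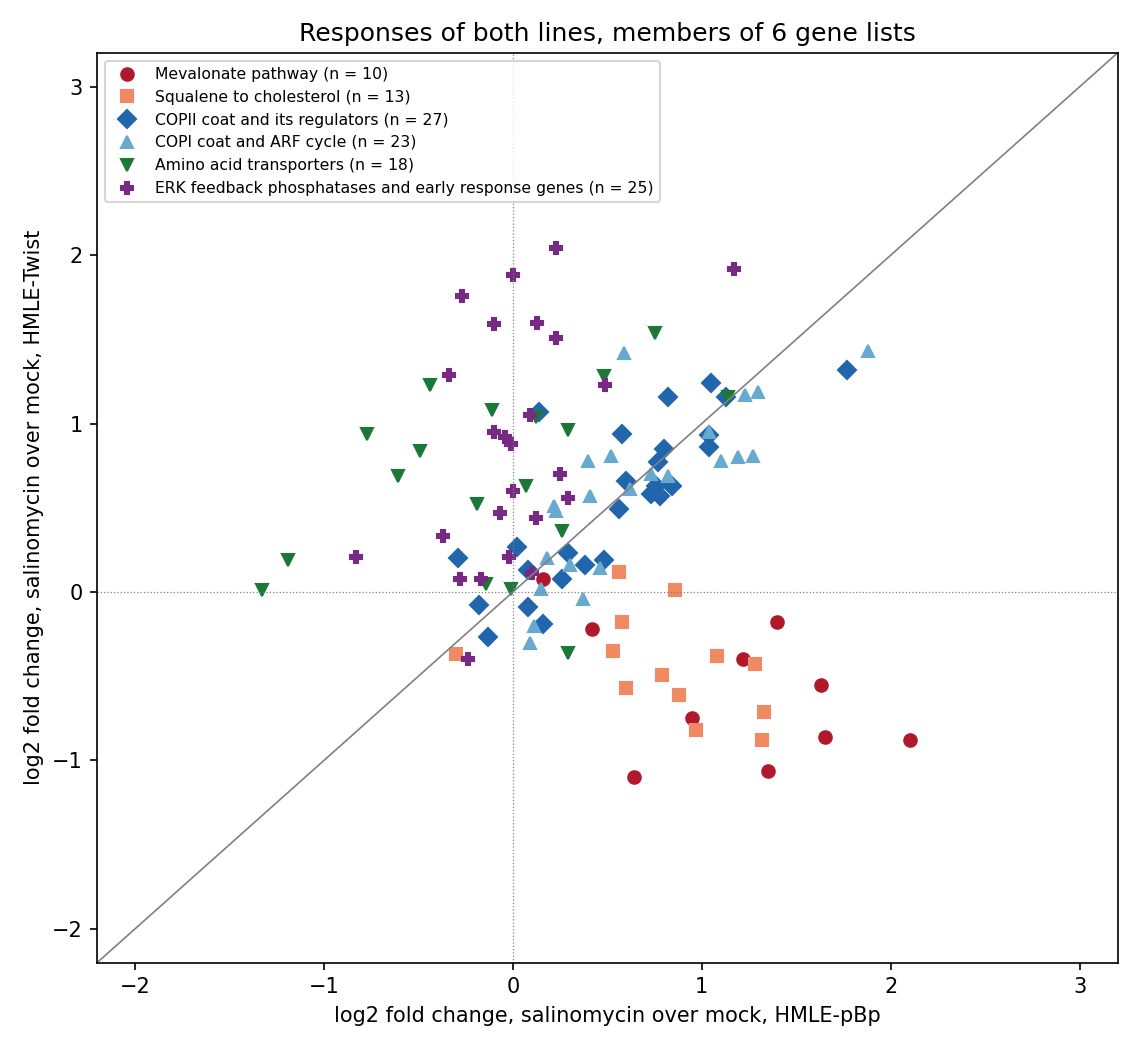
Log2 fold change of salinomycin over mock in HMLE-pBp (horizontal axis) and HMLE-Twist (vertical axis), 1 point per gene, for members of 6 gene lists, with the line of equal responses. Mevalonate genes, and those from squalene to cholesterol other than LBR (-0.30), lie right of 0 in HMLE-pBp, and both lists lie mostly below 0 in HMLE-Twist, and COPII and COPI genes lie mostly above 0 in both, with list medians in HMLE-Twist of -0.65, -0.43, 0.58 and 0.69.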

How the data were processed

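RNA of 12 libraries (TruSeq stranded mRNA kit, per the labels' protocols) is given in 4 tables of 26364 genes. Per the submitters' processing notes, DESeq2 1.1.0 and the genome build hg19 were used. No label or header names an aligner, a counter or an annotation. The mock tables deposited by the authors hold FPKM, and the salinomycin tables deposited by the authors hold log2 values.

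The mock FPKM were turned into whole reads by finding, for each gene, the length at which all its values are whole, and choosing the multiple of those reads by its posterior given the gene's exon length in GENCODE. Genes with a posterior of at least 0.95 were kept. Of 12915 genes with over 100 mock reads, 359 were left out, and 29.5 of those kept are expected to have a wrong multiple. The salinomycin values deposited by the authors had the form of DESeq2's regularised logarithm, judged from the values. Inverting it gave values within 0.1 of a whole read for 96.0% of HMLE-pBp values and 98.4% of HMLE-Twist values. Reads of all 12 libraries were scaled with median-of-ratios size factors and written as FPKM. Where a recovered length is wrong because a multiple of the mock reads was missed, the gene's level and its fold are both wrong.

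Genes with at least 1 FPKM in at least 3 of the 12 libraries were tested. The test was limma 3.58.1 (R 4.3.3, lmFit and eBayes with trend) on log2(FPKM + 1), with Benjamini-Hochberg adjustment over all genes. All 12 libraries were in this fit and shared 1 estimate of the spread. Fold changes on this scale understate the change of low genes. On simulated data for the comparison of salinomycin with mock in HMLE-pBp (11867 genes), 45 of 50 genes changed 2-fold, 16 of 50 changed 1.5-fold and 10 of 11667 unchanged genes were called. The changed genes all had a mean of over 100 HMLE-pBp mock reads. The simulated reads had a fixed spread and no replicate effect, and the recovery of reads was not part of the simulation. Low genes and the replicate effect of the real data are thus not covered. Python 3.11.15, numpy 2.4.6, pandas 2.3.3 and matplotlib 3.10.9 were used for the rest.

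The labels call the samples biological triplicates. The main fit used group means only and was not paired. Replicate numbers were taken to pair the samples only in the replicate block and in the differences between same-numbered libraries. The reason was that deviations of same-numbered libraries from their group means correlated. They did so at 0.532, 0.226 and 0.596 in HMLE-pBp and at 0.453, 0.428 and 0.717 in HMLE-Twist. This pairing comes from the data, not from a stated shared day or culture. Genes named with values are the 12 largest rises and falls among called genes whose groups do not overlap, up to 4 called members per list, a fixed set of marker and regulator genes and the 6 largest differences between the lines each way. PMVK, LBR, FADS1, SCD, SCD5, ELOVL5, ELOVL6, FASN, GOLM1, WNT7B, FZD3, FZD5 and LRP5 fall outside that rule and were named after their values were seen. The gene lists and the members were chosen with earlier results of these data known. Alternatives covered the pseudocount, the low-value filter, the scaling, TPM, limma voom, the replicate block, the 6 HMLE-pBp libraries alone, the shrinkage left in, and each library left out. Results for some genes of the lists are not reported here.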

Additional observations from a re-analysis of the deposited data

Results flagged for a closer look

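Responses to salinomycin that differed between HMLE-pBp and HMLE-Twist cells are given here as the log2 fold change in HMLE-pBp minus that in HMLE-Twist, and higher and lower refer to this signed difference (limma, adjusted p under 0.05 for the difference). Of the 145 genes named with the response and tested, 64 differed, 32 of them with a higher and 32 with a lower response in HMLE-pBp.

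In the sterol pathway and its regulators the response was higher in HMLE-pBp for HMGCS1 (2.98), INSIG1 (2.66), ACAT2 (2.51), TM7SF2 (2.20), MVD (2.19), MSMO1 (2.04), STARD4 (1.87), HSD17B7 (1.71) and CYP51A1 (1.46). In fatty acid and phospholipid genes it was higher for ACSS2 (3.30), FADS2 (1.79), SCD (1.69), LPIN1 (1.55), ACLY (1.55), PCYT2 (1.53) and FADS1 (1.14).

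Among genes of glucose, oxygen and hormone responses it was higher for ALDOC (2.27), TSC22D3 (2.02), BHLHE40 (0.99), SLC2A3 (0.77) and ENO2 (0.71), and among autophagy, arrest and stress genes for BNIP3L (1.33), CCNG2 (1.14), RRM2B (0.86) and TP53INP1 (0.81). Other genes with a higher response were ORAI3 (1.03), KRT5 (0.98), ST6GALNAC2 (0.89), LOXL2 (0.83), CREB3L1 (0.69), ESRP1 (0.59) and ARFGAP3 (0.46). CREB3L1 lay below 0.1 FPKM in HMLE-pBp.

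The response was lower in HMLE-pBp for the secretory pathway genes RCN3 (-2.95), GALNT14 (-0.94), KDELR1 (-0.66), GOLM1 (-0.65), CREB3L2 (-0.55), KDELR2 (-0.42) and GOLGA3 (-0.35). It was lower for the growth and early response genes MYC (-2.11), CCND1 (-1.22) and EGR1 (-0.75), and for the nucleolar genes SNORA24 (-1.73), SNHG4 (-1.50), SNHG3 (-0.81) and NOP56 (-0.52).

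Transport genes with a lower response were KCNJ15 (-1.61), SLC1A3 (-1.38), ABCG1 (-1.36), SLC7A2 (-1.34), STEAP3 (-1.15), AQP3 (-1.02) and ABCG2 (-0.59). Genes of secreted and surface proteins with a lower response were FST (-1.66), MMP2 (-1.26), SFRP1 (-1.13), MMP9 (-0.97), PROCR (-0.90), DLL1 (-0.80), CD44 (-0.76) and WNT7B (-0.47).

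The remaining ones with a lower response were GRHL3 (-0.62), MARS2 (-0.74) and PER2 (-0.57).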

How the results depend on the processing

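In HMLE-pBp, 1124 genes were higher and 1105 lower with salinomycin. With the replicate block these were 2039 and 2286, and with the shrinkage of the salinomycin values left in 2079 and 2167. The other planned settings gave 881 to 1192 higher and 914 to 1150 lower genes, among them 1071 and 941 in the 6 HMLE-pBp libraries alone. A stricter posterior of 0.99, chosen after seeing the data, gave 1076 and 1040. Leaving out 1 library at a time gave 650 to 1284 higher and 444 to 1214 lower genes. For the difference between the lines, 781 higher and 822 lower, the replicate block gave 1840 and 2000 and the shrinkage left in 1869 and 1857. Leaving out 1 of the 12 libraries at a time gave 342 to 1183 higher and 409 to 1163 lower. The cause of these moves was not tested. Of 240 named genes none changed direction while called. The replicate block added 12 calls among them and changed no other call. Calls were lost for 63 named genes without mock replicate 3, 56 without salinomycin replicate 1, 48 without mock replicate 2, 38 without mock replicate 1, 35 without salinomycin replicate 2 and 13 without salinomycin replicate 3. They were lost for 32 with no filter on low values, 23 in the 6 HMLE-pBp libraries alone and 21 with a pseudocount of 0.1. With 3 libraries a group, 16 of 50 simulated 1.5-fold changes were found, so that modest changes can be missed. Genes whose recovered length is uncertain have uncertain levels and folds.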
